A study of Mus musculus with 8 samples.

Results

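Collagen chain genes were examined in B16-F10 melanoma tumors from mice on HFHCD and on CD. All genes whose symbol in the array's annotation consists of Col, a type number, the letter a and a chain number were taken, which gave 44 of the 24675 genes tested. This rule reads the symbol alone. Both groups were female C57BL/6J mice, a wild-type inbred strain. The HFHCD group was fed a pro-atherogenic diet rich in cocoa butter and cholesterol (high fat high cholesterol diet, written HFD in the sample titles), and the CD group was fed standard chow (chow diet). After 2 weeks of diet, B16-F10 cells, an established mouse melanoma line of C57BL/6 origin, were injected under the skin of the flank. At day 9 of growth 4 tumors per diet were taken whole, and total RNA of each was measured on 1 array. Each tumor thus held melanoma cells of 1 line together with the host's cells, and for a bulk sample fewer cells of a type and less RNA per cell cannot be told apart. The comparison asks which genes of the tumors differ with the diet of the mice.

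Collagens are proteins of the extracellular matrix in which 3 chains wind around each other into a triple helix, so that the products of several genes often meet in 1 molecule. Fibrillar collagens assemble into the fibers of connective tissue, FACIT collagens (fibril-associated collagens with interrupted triple helices) sit on the surface of such fibers, type IV chains form the sheet-like net of basement membranes under epithelium and around vessels, and type VI and type VIII chains build beaded filaments and hexagonal lattices. In skin and in many tumors fibroblasts are the main source of fibrillar collagens, whereas endothelial cells and pericytes also deposit type IV collagen.

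Of the 44 collagen chain genes, 13 were lower in HFHCD tumors at an unadjusted p under 0.05 in limma, where 3.91% of all genes tested were lower. By the same test 0 of the 44 were higher, where 4.76% of all genes tested were, and over the alternatives between 0 and 2 were. The shares of 3.91% and 4.76% also stand beside the counts by class below. The methods' t-test gave 9 lower and 0 higher. The lower genes were Col1a1, Col1a2, Col3a1, Col5a1 and Col5a2 of the fibrillar class, Col4a1 and Col4a2 of basement membranes, Col6a1, Col6a2, Col6a3 and Col8a1 of the network class, and the FACIT genes Col12a1 and Col14a1. In 9 of the 44 genes all 4 HFHCD tumors lay below all 4 CD tumors (2.27% of all genes tested), and in 0 all 4 lay above (2.93%). The median log2 fold change (HFHCD over CD) was -0.071 over the 44 genes and 0.0024 over all genes tested. No gene of the array passed an adjusted p of 0.05, and the adjusted p of the 13 genes, after Benjamini-Hochberg over all genes in limma, ran between 0.423 and 0.529. Only the spread between these 8 tumors enters the p-values. In limma it is pooled over both diets and drawn, for each gene, toward that of all genes.

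Several of the lower genes are neighbours in the genome. In the RefSeq annotation no coding gene lies between Col3a1 and Col5a2, between Col6a1 and Col6a2 or between Col4a1 and Col4a2, and both genes of each of these pairs were lower. Of the pairs Col9a1 and Col19a1, Col4a3 and Col4a4, Col6a4 and Col6a5, Col6a5 and Col6a6, and Col4a5 and Col4a6 no gene was called. Of Col6a1 and Col18a1, with 2 coding genes between them, Col6a1 was lower and Col18a1 was not called (log2 fold change -0.24). A difference between these genes was not tested. Col4a1 and Col4a2 run away from each other, and their RefSeq promoter windows (GRCm38.p6), which reach across the start of transcription, share 78 bases.

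RefSeq promoter windows of GRCm38.p6 were matched by gene identifier to 35 of the 44 genes, 9 of them among the 13 lower genes. A gene with several windows counted as a match if any of them held the letters. The 250 bases before the start were searched on both strands for the letters of 4 elements. The CCAAT box (CCAAT) was found in 3 of 9 lower and 10 of 26 other genes, against 37.5% of all 27025 genes with a window. The TATA box (TATAAA) was found in 1 of 9 and 4 of 26 (14.3% of all), the GC box (GGGCGG) in 5 of 9 and 16 of 26 (35.4%), and the Smad element (CAGAC, the letters bound by the transcription factors of TGF-beta signalling) in 7 of 9 and 10 of 26 (45.8%). The Smad letters stood before Col1a2, Col3a1, Col4a2, Col5a1, Col6a2, Col6a3 and Col8a1, and not before Col4a1 and Col6a1. A match of letters shows neither binding nor use. The 120 bases just before the start are shown for 4 lower genes, namely Col3a1, Col1a2 and Col5a1, whose chains meet in the same fibers, and Col6a1. Capitals mark the searched elements on either strand, so that GTCTG is CAGAC read on the other strand. Col3a1 has TATAAA and GTCTG (chr1:45311418-45311537, + strand), Col1a2 has CCAAT (chr6:4505498-4505617, + strand), Col5a1 has GGGCGG and GTCTG (chr2:27886305-27886424, + strand) and Col6a1 has none (chr10:76726045-76726164, - strand). Further matches of Col1a2, to GGGCGG and CAGAC, lie upstream of its stretch. Within the 250 bases searched, CAGAC thus stood before Col3a1, Col1a2 and Col5a1 alike. The search set no distance to the start. The TATAAA of Col3a1 stands at the upstream end of its stretch, beyond GTCTG, which begins 64 bases before the start.
Col3a1: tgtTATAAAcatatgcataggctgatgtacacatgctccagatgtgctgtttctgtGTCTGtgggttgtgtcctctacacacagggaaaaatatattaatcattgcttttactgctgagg
Col1a2: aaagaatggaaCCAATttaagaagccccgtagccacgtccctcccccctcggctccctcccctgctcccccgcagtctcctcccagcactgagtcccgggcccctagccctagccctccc
Col5a1: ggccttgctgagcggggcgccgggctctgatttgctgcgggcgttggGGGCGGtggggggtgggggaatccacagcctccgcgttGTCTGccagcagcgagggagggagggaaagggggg
Col6a1: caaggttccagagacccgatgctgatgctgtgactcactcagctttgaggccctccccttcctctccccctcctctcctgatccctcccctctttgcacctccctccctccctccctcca

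**Figure D1:**
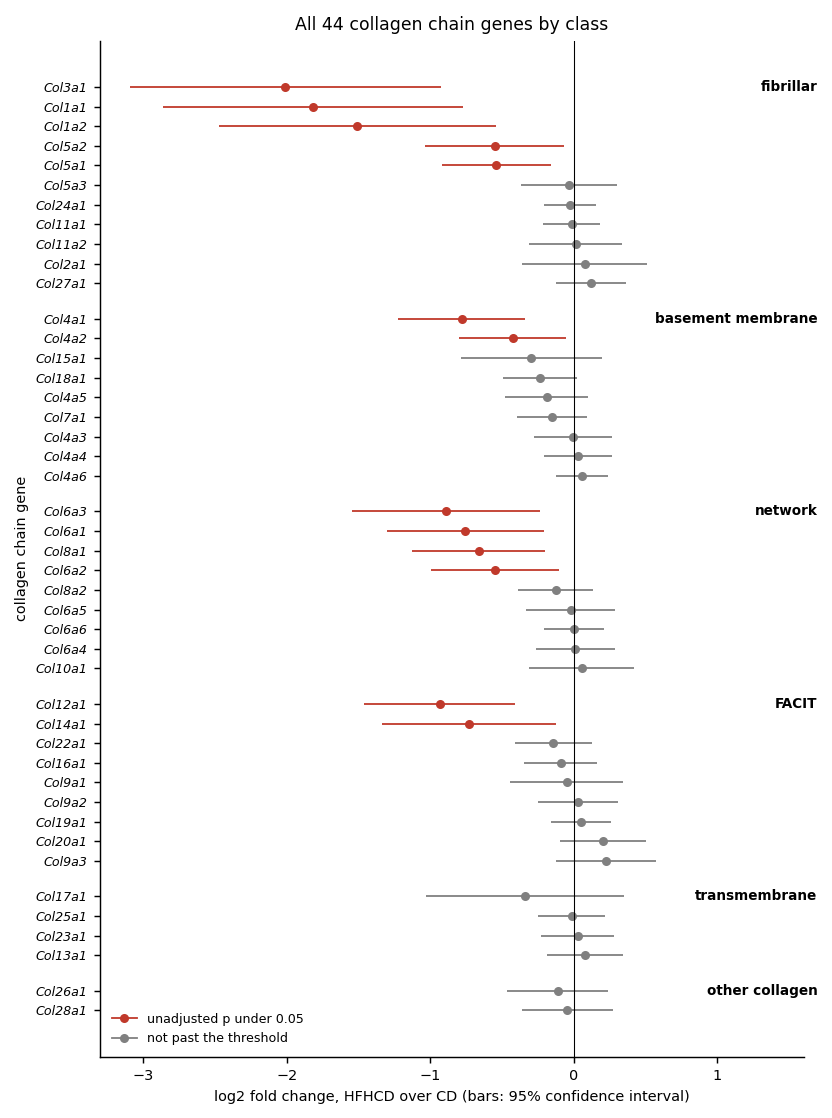
Log2 fold change (HFHCD over CD) of the 44 collagen chain genes by class, as points with their 95% confidence intervals, red where the unadjusted p of limma was under 0.05. The 13 red points lie between -2.01 and -0.43, and the 31 grey ones between -0.34 and 0.22.

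The chain genes of types I and III, fibrillar collagens of skin and scar, showed the largest differences of the 44. Col3a1, the single chain of type III collagen, had log2 values of 6.81, 6.54, 6.51 and 6.57 in HFHCD tumors 1 to 4, against 9.31, 7.83, 9.91 and 7.43 in CD tumors 1 to 4. The groups did not overlap, and the HFHCD tumors lay close together while CD 1 and CD 3 stood well above CD 2 and CD 4. It averaged 6.61 ± 0.14 in HFHCD tumors and 8.62 ± 1.18 in CD tumors (SD, n = 4 each), a log2 fold change of -2.01 (SE 0.48) or 4.03-fold lower (limma, p = 0.00219, exact permutation p = 0.0286). That exact p, two-sided, is the smallest that 4 tumors against 4 can give.

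Col1a1, which encodes the alpha 1 chain of type I collagen, had 7.27, 7.32, 6.77 and 7.25 in HFHCD tumors, against 8.84, 8.36, 10.58 and 8.10 in CD tumors. Every HFHCD tumor was below every CD tumor, with HFHCD 3 lowest and CD 3 highest. The means were 7.15 ± 0.26 on HFHCD and 8.97 ± 1.12 on CD, and the log2 fold change was -1.82 (SE 0.46, 3.52-fold lower, limma p = 0.00333, exact permutation p = 0.0286). Col1a2, the alpha 2 chain that joins 2 alpha 1 chains in type I collagen, had 6.61, 6.39, 6.32 and 6.50 in HFHCD tumors and 8.02, 7.40, 9.41 and 7.01 in CD tumors. Its groups did not overlap either, and the tumors CD 3 and CD 1 were again the highest. Its log2 fold change was -1.51 (SE 0.43, 2.84-fold lower, limma p = 0.00618, exact permutation p = 0.0286). These 3 genes were the only collagen chain genes both called and lower by more than 1 on the log2 scale. Among all 24675 genes tested, 115 were both called and lower by more than 1.

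Type V collagen co-assembles with type I and limits the width of its fibers. Col5a1 had 6.52, 6.13, 6.46 and 6.44 in HFHCD tumors against 6.85, 6.59, 7.40 and 6.87 in CD tumors, and Col5a2 had 5.42, 5.14, 5.15 and 5.29 in HFHCD tumors against 5.74, 5.47, 6.51 and 5.48 in CD tumors. In both genes the groups were separate, though for each of them the highest HFHCD tumor came close to the lowest CD tumor. The log2 fold change was -0.54 for Col5a1 (SE 0.17, limma p = 0.0103) and -0.55 for Col5a2 (SE 0.21, limma p = 0.0287), with an exact permutation p of 0.0286 for both. The remaining type V chain, Col5a3, had a log2 fold change of -0.04 with a 95% confidence interval between -0.37 and 0.30.

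The other fibrillar genes did not pass the threshold. They were Col2a1, Col11a1 and Col11a2, whose chains form the fibrils of cartilage, and Col24a1 and Col27a1, with log2 fold changes between -0.02 for Col24a1 and 0.12 for Col27a1. Over the 11 fibrillar genes 5 were lower, 0 higher and 6 not called, and the median log2 fold change was -0.035. The mean log2 level over the class was between 5.81 and 6.03 in HFHCD tumors and between 6.13 and 6.99 in CD tumors.

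**Figure D2:**
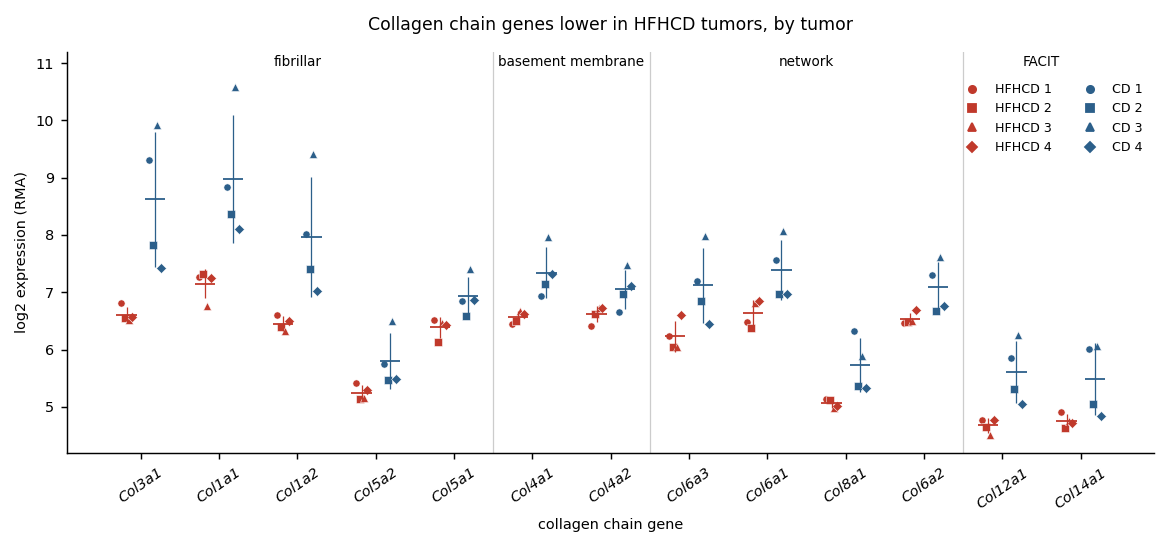
Log2 expression of the 13 collagen chain genes lower in HFHCD tumors, with HFHCD (red) left of CD (blue) for each gene, tumors 1 to 4 by symbol, and bars for the mean and 1 SD. In 9 genes the groups are separate, and CD 3 is the highest of the 8 tumors in 12 of the 13.

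Among basement membrane collagens the 2 ubiquitous type IV chains were lower. Col4a1 and Col4a2 chains join in a ratio of 2 to 1 in the basement membranes of most tissues, those of vessels included. Col4a1 had 6.45, 6.50, 6.67 and 6.63 in HFHCD tumors, against 6.94, 7.15, 7.97 and 7.32 in CD tumors, with no overlap. The log2 fold change was -0.78 (SE 0.20, 1.72-fold lower, limma p = 0.00295, exact permutation p = 0.0286). Col4a2 had 6.42, 6.62, 6.72 and 6.73 in HFHCD tumors, against 6.66, 6.96, 7.48 and 7.10 in CD tumors. Here CD 1 fell among the HFHCD tumors, and the log2 fold change was -0.43 (SE 0.16, limma p = 0.0282, exact permutation p = 0.0857). Unlike in the fibrillar genes, CD 1 was the lowest CD tumor in both type IV genes.

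The chains Col4a3, Col4a4, Col4a5 and Col4a6, which form the type IV nets of more restricted tissues such as the kidney glomerulus, were not called, with log2 fold changes of 0.00, 0.03, -0.19 and 0.06. Col18a1, whose C-terminal fragment is endostatin, had 5.39, 5.07, 5.30 and 4.98 in HFHCD tumors against 5.53, 5.32, 5.52 and 5.32 in CD tumors. Its groups overlapped and its log2 fold change of -0.24, with a 95% interval between -0.50 and 0.02, missed the threshold (limma, p = 0.0674, exact permutation p = 0.114). It had the smallest p of the 31 genes not called, and it passed the threshold in limma with the replicate block (log2 fold change -0.24), after quantile (-0.23) or cyclic loess (-0.26) normalization and without HFHCD 1 (-0.31). Col15a1, the related collagen of vessel and muscle basement membranes, had a log2 fold change of -0.30 with an interval between -0.79 and 0.20. Its value rested on single tumors, since it was -0.46 and past the threshold in limma without CD 1, -0.10 without CD 3 and -0.18 without HFHCD 3. Col7a1, the anchoring fibril collagen of the skin, had a log2 fold change of -0.15 with an interval between -0.40 and 0.09. The class counted 9 genes, with 2 lower, 0 higher and a median log2 fold change of -0.19.

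Type VI collagen, a filament of connective tissue made of 3 different chains, was lower in all 3 of its widely expressed chain genes. Col6a1 had 6.48, 6.38, 6.82 and 6.86 in HFHCD tumors and 7.56, 6.96, 8.06 and 6.98 in CD tumors, which did not overlap (log2 fold change -0.76, SE 0.24, limma p = 0.0118, exact permutation p = 0.0286). Col6a2 had 6.46, 6.47, 6.51 and 6.69 in HFHCD tumors and 7.30, 6.67, 7.62 and 6.77 in CD tumors, and HFHCD 4 lay just above CD 2 (log2 fold change -0.55, SE 0.20, limma p = 0.0204, exact permutation p = 0.0571). Col6a3, the longest of the chains, had 6.24, 6.04, 6.04 and 6.60 in HFHCD tumors and 7.20, 6.85, 7.99 and 6.45 in CD tumors. HFHCD 4 exceeded CD 4, and the log2 fold change was -0.89 (SE 0.29, 1.86-fold lower, limma p = 0.0128, exact permutation p = 0.0571). The alternative chains Col6a4, Col6a5 and Col6a6 had log2 fold changes of 0.01, -0.02 and 0.00, and Col6a4 and Col6a5 were below the dim level of 4.49, the 40th percentile of all values, in every tumor.

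Col8a1, a type VIII chain of the subendothelial matrix and of remodelled vessel walls, had 5.14, 5.12, 4.98 and 5.02 in HFHCD tumors, against 6.33, 5.36, 5.89 and 5.33 in CD tumors. The groups were separate, and CD 1 was the highest of the 8 tumors in this gene (log2 fold change -0.66, SE 0.21, limma p = 0.01, exact permutation p = 0.0286). Its partner chain Col8a2 had a log2 fold change of -0.13 with a 95% interval between -0.39 and 0.13, and Col10a1, the collagen of hypertrophic cartilage, had 0.05. In the 9 genes of the network class 4 were lower and 0 higher, and the median log2 fold change was -0.13.

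Of the FACIT collagens on the surface of fibers, the pair that binds type I fibrils was lower. Col12a1 had 4.78, 4.66, 4.51 and 4.78 in HFHCD tumors, against 5.85, 5.31, 6.25 and 5.05 in CD tumors, with no overlap (log2 fold change -0.94, SE 0.23, 1.91-fold lower, limma p = 0.00286, exact permutation p = 0.0286). Col14a1 had 4.92, 4.63, 4.76 and 4.73 in HFHCD tumors, against 6.01, 5.05, 6.06 and 4.84 in CD tumors. CD 4 lay below HFHCD 1 in this gene, and the highest values, 6.01 and 6.06, were those of CD 1 and CD 3 (log2 fold change -0.73, SE 0.27, limma p = 0.023, exact permutation p = 0.0571). The call on Col14a1 was lost when either CD 1 (log2 fold change -0.56) or CD 3 (-0.54) was left out.

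The type IX genes Col9a1, Col9a2 and Col9a3, whose products cover cartilage fibrils, had log2 fold changes of -0.05, 0.03 and 0.22. Col9a3 had the highest log2 fold change of the 44 genes, but its 95% interval ran between -0.12 and 0.57. Col16a1, Col19a1, Col20a1 and Col22a1 lay between -0.14 and 0.20 and were not called either, so that the 9 FACIT genes measured counted 2 lower and 0 higher, with a median log2 fold change of -0.051.

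No transmembrane collagen was called. Col17a1, which anchors epidermal cells to the basement membrane in hemidesmosomes, had 5.43, 5.37, 5.14 and 5.09 in HFHCD tumors, against 5.15, 5.49, 6.65 and 5.10 in CD tumors. Only CD 3 stood out, and the log2 fold change of -0.34 had the widest 95% interval among the 31 genes not called, between -1.03 and 0.35 (limma p = 0.298, exact permutation p = 0.429). Without CD 3 the log2 fold change of Col17a1 was 0.01. The mean of 10 epidermis markers was also highest in CD 3, at 7.18, against 4.67 to 5.51 in HFHCD tumors and 4.71 to 5.85 in the other CD tumors, and its part in the Col17a1 value was not tested. Col13a1 had 6.01, 6.06, 5.84 and 5.93 in HFHCD tumors, against 6.17, 5.74, 5.70 and 5.93 in CD tumors, with a log2 fold change of 0.07 and an interval between -0.19 and 0.34 (limma p = 0.541, exact permutation p = 0.571). Col23a1 and Col25a1 had log2 fold changes of 0.03 and -0.02.

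Of the genes outside these classes, Col26a1 had 5.70, 5.55, 5.27 and 5.47 in HFHCD tumors, against 6.02, 5.52, 5.59 and 5.32 in CD tumors, a log2 fold change of -0.11 with an interval between -0.46 and 0.24 (limma p = 0.483, exact permutation p = 0.571). Col28a1 had 4.04, 4.43, 4.06 and 3.89 in HFHCD tumors, against 4.26, 3.95, 4.37 and 4.02 in CD tumors, a log2 fold change of -0.05 with one between -0.36 and 0.27 and a p above 0.05 in limma. In both genes the diets overlapped. Over all 31 genes not called, 18 had a negative and 13 a positive log2 fold change, and the 95% interval reached a median of 0.272 to either side. Col11a1, Col6a4, Col6a5, Col25a1 and Col28a1 were below the dim level in all 8 tumors, 33 of the 44 genes were above it in all 8, and none of the 13 lower genes was below it in any.

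The 13 lower genes differed little among HFHCD tumors and more among CD tumors. The SD was larger in CD than in HFHCD tumors in 13 of 13 genes, with a median of 0.133 in HFHCD tumors and 0.528 in CD tumors. This was not particular to collagens. Over all genes the correlation between tumors was 0.974 to 0.99 on CD and 0.991 to 0.994 on HFHCD. The mean of the skeletal muscle markers had an SD of 0.721 in CD and 0.192 in HFHCD tumors. Other lists differed less, with 0.18 and 0.141 for endothelial and 0.0668 and 0.0445 for melanocyte markers. Of the 13 lower collagen genes, CD 3 was the highest tumor in 12 and CD 1 in Col8a1. The lowest was HFHCD 2 in 5 genes, HFHCD 3 in 5 and HFHCD 1 in 3. Without CD 1 and CD 3 the 13 log2 fold changes all stayed negative, and 9 of the genes passed the threshold in limma, while 7.2% of all genes were then lower. Col3a1, Col1a1 and Col1a2 had log2 fold changes of -1.02, -1.08 and -0.76 in that setting and were thus smaller in size than over all 8 tumors, and Col12a1 and Col8a1 had -0.50 and -0.28. Col4a1 and Col4a2, at -0.67 and -0.41, moved least. The calls lost were those of Col14a1 (-0.19), Col5a2 (-0.23), Col6a1 (-0.34) and Col6a2 (-0.18), and Col5a1 and Col6a3 had -0.34 and -0.42. Without CD 3 alone the calls of Col14a1 and Col4a2 (-0.28) were lost and Col5a2 had -0.32. The call of Col4a2 was also lost without CD 4 (-0.41), HFHCD 1 (-0.36) or HFHCD 2 (-0.43), that of Col5a2 without HFHCD 2 or HFHCD 3 (-0.52 for each) and that of Col14a1 without HFHCD 2 (-0.69).

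**Figure D3:**
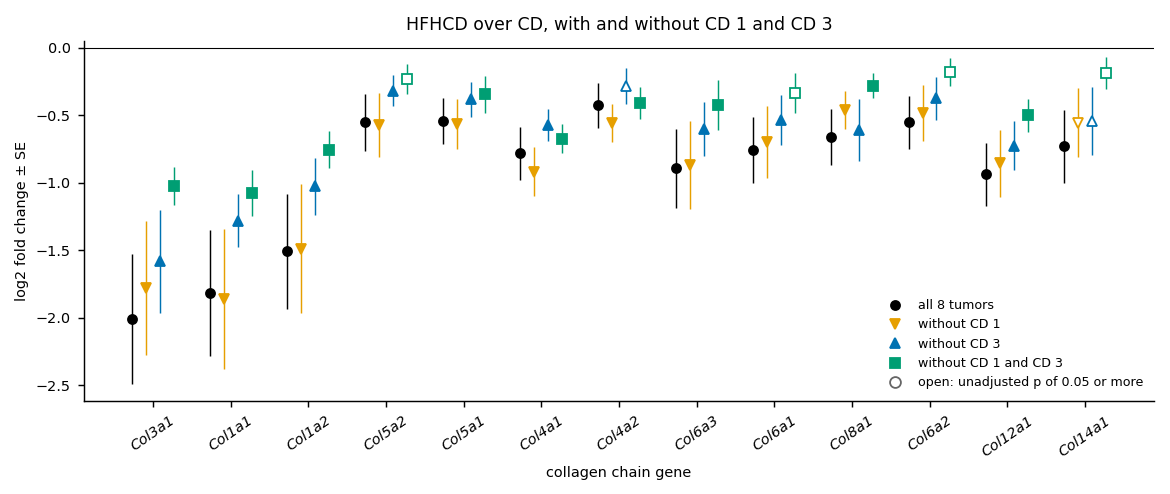
Log2 fold change (HFHCD over CD) of the 13 lower collagen chain genes with its SE, for all 8 tumors, without CD 1, without CD 3 and without both, open where the unadjusted p of limma was 0.05 or more. All values stay below 0, and without both tumors Col3a1 moves to -1.02 while Col4a1 stays at -0.67.

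Some markers of host cells moved with the collagens. The counts of markers called stand beside 3.91% lower and 4.76% higher over all genes tested. Of 13 fibroblast markers measured, 8 were lower in HFHCD tumors, among them the fibril-binding proteoglycan Dcn (-2.22) and Dpt (-2.15), and 1, Serpinf1, was higher (0.46). None of the 13 was below the dim level in all tumors, and their mean was between 5.54 and 5.65 in HFHCD tumors and 5.91 and 6.88 in CD tumors, with CD 1 and CD 3 at the upper end. Macrophage markers were lower in 9 of 12 (means of 5.90 to 6.45 in HFHCD and 6.46 to 7.91 in CD tumors) and skeletal muscle markers in 11 of 14 (5.19 to 5.60 in HFHCD and 5.50 to 7.03 in CD tumors), both highest in CD 3 and then CD 1. Endothelial markers were lower in 1 of 12 (5.72 to 6.07 in HFHCD and 5.83 to 6.21 in CD tumors), and pericyte and smooth muscle markers in 1 of 10 with 1 higher (6.21 to 6.37 in HFHCD and 6.14 to 6.61 in CD tumors). Their part in the collagen values was not tested. Adipocyte markers were lower in 1 of 5, cartilage markers in 0 of 7 and epidermis markers in 0 of 10. Their log2 fold changes were negative in 5, 6 and 9 of them, with medians of -0.28, -0.13 and -0.66. The epidermis means were 4.67 to 5.51 in HFHCD and 4.71 to 7.18 in CD tumors. Melanocyte markers, which mark the injected cells, were lower in 0 of 10 and higher in 1 (11.91 to 12.02 in HFHCD and 11.81 to 11.97 in CD tumors).

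**Figure D4:**
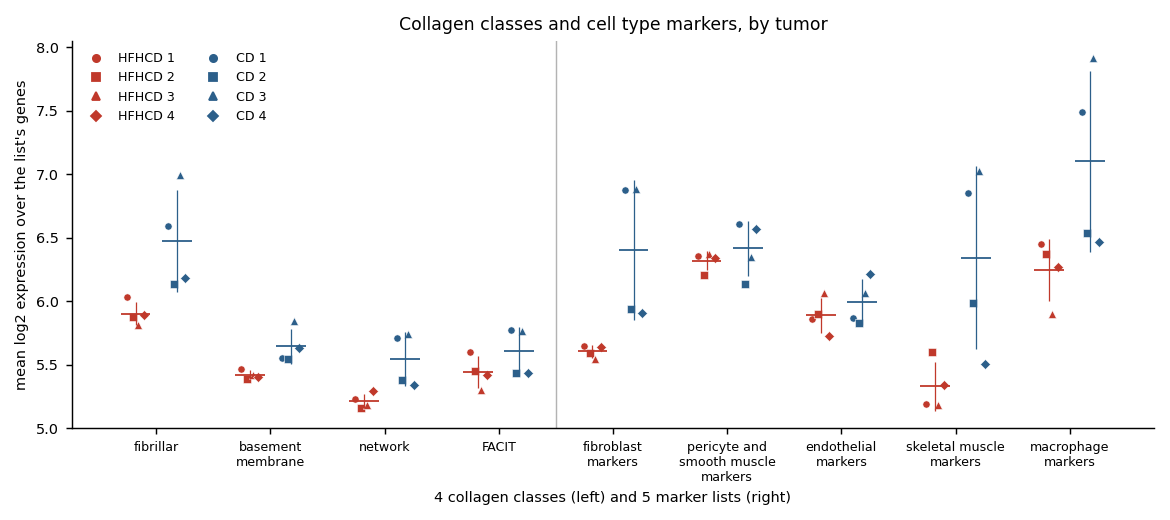
Mean log2 expression over the genes of 4 collagen classes and 5 marker lists, with HFHCD (red) left of CD (blue), tumors 1 to 4 by symbol, and bars for the mean and 1 SD. Fibroblast markers are between 5.54 and 5.65 in HFHCD tumors and 5.91 and 6.88 in CD tumors, and endothelial markers overlap between the groups.

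Collagen chains are hydroxylated, folded, trimmed and cross-linked by enzymes and chaperones, of which 32 were listed and 30 measured. Of these 4 were lower (Pxdn, Lox, Loxl1 and Pcolce2), 2 higher (Loxl3 and P3h3) and 24 not called, beside 3.91% lower and 4.76% higher over all genes tested, with a median log2 fold change of -0.034. Pxdn, peroxidasin, forms the sulfilimine cross-links of type IV collagen, and had 4.83, 4.75, 4.78 and 4.81 in HFHCD tumors, against 5.71, 5.48, 5.46 and 5.38 in CD tumors. Both groups were narrow and separate, and CD 3 was not the highest (log2 fold change -0.71, SE 0.09, 1.64-fold lower, limma p = 2.43e-05, adjusted p = 0.32, exact permutation p = 0.0286). Without CD 1 and CD 3 it was the only one of the 4 lower genes still called, at -0.64, while Lox had a log2 fold change of -0.33, Loxl1 -0.12 and Pcolce2 -0.12, none of them past the threshold in limma.

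Lysyl oxidase, Lox, which starts the cross-links of fibrillar collagen, had 4.38, 4.52, 4.05 and 4.42 in HFHCD tumors, against 6.53, 4.49, 5.69 and 4.86 in CD tumors. HFHCD 2 lay above CD 2, and the log2 fold change was -1.05 (SE 0.38, limma p = 0.0215, exact permutation p = 0.0571). HFHCD 1, HFHCD 3, HFHCD 4 and CD 2 were below the dim level in this gene. Its log2 fold change was -0.67 without CD 1, and the call was lost without CD 3 or HFHCD 3 (-0.95 for each). The related Loxl1 had 4.63, 4.69, 5.27 and 4.83 in HFHCD tumors and 5.92, 5.04, 6.11 and 4.92 in CD tumors, also with overlap (log2 fold change -0.64, SE 0.28, limma p = 0.0457, exact permutation p = 0.143). The call of Loxl1 was lost when CD 1 (-0.50), CD 3 (-0.44), HFHCD 1 (-0.57), HFHCD 2 (-0.58) or HFHCD 4 (-0.63) was left out. The other called genes fell outside the naming rule and are given after their values were seen. Pcolce2, an enhancer of procollagen trimming, had a log2 fold change of -0.34, a call lost on leaving out any tumor but CD 2 or HFHCD 4, the oxidase Loxl3 had 0.42 and P3h3, of the prolyl 3-hydroxylase family, had 0.37.

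General parts of the collagen machinery were among the genes not called, such as the collagen chaperone Serpinh1 (log2 fold change -0.13), the trimming protease Bmp1 (-0.13), the prolyl 4-hydroxylase subunit P4ha1 (-0.04) and the lysyl hydroxylase Plod2 (0.05). Of 10 genes for receptors and uptake of collagen, 0 were lower and 0 higher at an unadjusted p under 0.05 in limma, beside 3.91% and 4.76% of all genes tested. The gene with the smallest p was Mrc2. Mrc2, the endocytic receptor that clears collagen, had 5.50, 5.11, 5.07 and 5.17 in HFHCD tumors against 5.69, 5.13, 5.71 and 5.37 in CD tumors (log2 fold change -0.26, limma p = 0.123, exact permutation p = 0.2). Lair1, an inhibitory collagen receptor of leukocytes, had 4.87, 4.65, 4.26 and 4.28 in HFHCD tumors against 5.23, 4.67, 5.58 and 4.31 in CD tumors (log2 fold change -0.43, limma p = 0.137, exact permutation p = 0.2). The groups overlapped in both genes.

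Depth is not defined for arrays. The array medians lay between 5.03 and 5.20 on the log2 scale, and the correlation over all genes between tumors of a group was 0.991 to 0.994 on HFHCD and 0.974 to 0.99 on CD.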

How the data were processed

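Total RNA of 8 tumors was hybridised to Affymetrix mouse gene arrays, 1 per tumor. The log2 values deposited by the authors came from RMA (background correction, normalization between arrays, summary of probes), and the submitters' notes name RMA and Affymetrix Expression Console, with versions and genome build not given in the sources used here. Groups and replicate numbers came from the titles. Of 25429 probe sets, 24675 had 1 gene symbol in the platform annotation, 754 are unnamed here and 0 value columns went unused.

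HFHCD was compared with CD on all genes with lmFit and eBayes (limma 3.58.1, R 4.3.3), two-sided and without covariates, with an unadjusted p under 0.05 as the limit for a call, as in the study's methods. Single genes were also tested by a two-sided exact permutation test over all 70 assignments. The fit was checked on simulated data. Figures were drawn with matplotlib 3.10.9. No test was made on a list. The members and lists were chosen with earlier results of these data known.

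All 44 genes are accounted for. Values per tumor are given for called genes and for the 2 with the smallest p in each class, and in the enzyme and receptor lists for called genes beyond 0.5 on the log2 scale or else the 2 with the smallest p. Col18a1 was added after its values were seen. Of the listed genes, Col21a1, Fkbp10, Adamts2, Fbn1 and Cfd were not matched by symbol and are not analysed here. Alternatives were the replicate block, leaving out each tumor or CD 1 and CD 3 together, the methods' t-test (Student's test without moderation), weights for arrays, a robust prior with a trend, quantile or cyclic loess normalization, centring on the median, a filter on dim genes (above 4.49 in at least 4 arrays) and an adjusted threshold.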

Additional observations from a re-analysis of the deposited data

Results flagged for a closer look

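In 5 of the 88 sets of 4 tumors checked (44 genes on each diet), 1 tumor stood apart from the other 3, by a gap that takes up most of the set's range. Chance gives such a tumor in about 5% of sets. In Col1a1, a gene lower on HFHCD, HFHCD 3 had a log2 value of 6.768, with the nearest HFHCD tumor at 7.252. In Col7a1, HFHCD 3 was lowest at 5.318 with the nearest HFHCD tumor at 5.416, a gap that is small in absolute size. In Col11a1, HFHCD 3 was highest at 4.41 with the nearest at 4.241, below the dim level. In Col4a3, HFHCD 1 was highest at 4.583 with the nearest at 4.185. In Col6a6, CD 4 was lowest at 4.698, and the nearest CD tumor was at 4.95.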

How the results depend on the processing

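In all 18 alternatives the 13 lower genes kept a negative log2 fold change. The fold change itself could not move with the replicate block, the methods' t-test, the robust prior, the dim filter or the adjusted threshold. The 13 genes were also chosen by their calls on these same arrays. The number of collagen chain genes lower was 0 at an adjusted p under 0.05, and otherwise between 9 (methods' t-test, which lost Col14a1, Col4a2, Col5a2 and Col6a2) and 14. Leaving out 1 tumor gave 10 to 13 lower (10 without HFHCD 2, which lost Col14a1, Col4a2 and Col5a2) and 0 to 2 higher (Col20a1 and Col9a3 without HFHCD 3), while 2.56% to 7.16% of all genes were lower and 3.4% to 7.87% higher. Col15a1 was lower without CD 1, Col4a5 without HFHCD 3 and Col18a1 without HFHCD 1. Of collagen chain genes 1 was higher without CD 1 and CD 3 (Col27a1), when Col10a1 was also lower, and 1 with array weights (Col9a3), beside 7.34% and 7.81% of all genes. Of the processing and cross-linking genes, 4 of which were lower over all tumors, 1 was lower by the methods' t-test, 2 with array weights, 0 at an adjusted p under 0.05, and 1 to 4 with 1 tumor left out (1 without CD 3). Without CD 1 and CD 3 there were 3, Pxdn with Mia3 and P3h1, and Lox, Loxl1 and Pcolce2 lost their calls. Loxl3 and P3h3 stayed higher in every alternative except the adjusted threshold. Centring on medians, quantile and cyclic loess normalization gave 13, 14 and 14 lower collagen genes, and the filter on dim genes 13 of 35 tested. The smallest adjusted p of a collagen gene was between 0.157 and 0.809 over the alternatives.

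The titles do not state whether tumors of the same replicate number were pairs. The correlation of deviations of same-numbered tumors was 0.269, -0.0293, -0.265 and 0.0507, which cannot settle it with 4 tumors per diet. With the replicate block 14 collagen chain genes were lower (Col18a1 added), 0 higher, and 3 processing genes lower. With 4 tumors per diet precision is limited by their number, and small differences in the genes not called were within the confidence intervals.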
